A study of Mus musculus with 20 samples.

Results

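The 6 genes described here belong to the metabotropic glutamate receptor family and were measured by RNA-seq in the hippocampus of 20 mice: Grm2, Grm3, Grm4, Grm5, Grm7 and Grm8. They were chosen by name, as the genes whose symbol in the deposited gene table is one of these, and each symbol matched 1 of its 48709 genes. All 6 passed the filter on low counts, which 19797 genes passed. The mice were offspring of strain C57BL/6 (C57BL/6J in the study's methods) in 4 groups of 5, with control and nPM mice of each sex, and the labels name no transgene or deleted gene in any of them. nPM is nano-sized particulate matter of urban air. The dams of the nPM groups inhaled it while pregnant at 300 units of mass per m3 (milligrams in the labels, micrograms in the study's methods), 5 h a day and 3 days a week, from gestational day 2 until birth, and the dams of the control groups inhaled filtered air in the same room. The offspring themselves were not exposed after birth. Females were 17.71 to 18.29 weeks old and males 18.57 to 19.14 weeks old, so sex and age cannot be told apart in any comparison of the sexes. The methods describe injections of EdU, a label of dividing cells, in male offspring before tissue collection. They then state that all animals were injected, without saying whether this includes females. The labels do not give which of the samples here received it. If only males did, EdU and sex cannot be told apart either. The offspring of each exposure group came from more than 1 litter, but the labels do not give the litter of a sample, and samples of a group that shared a litter would make p-values too small.

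Metabotropic glutamate receptors are G protein-coupled receptors that sense glutamate at the synapse. Grm5 belongs to group I, which couples to Gq, activates phospholipase C and releases calcium from internal stores. Grm2 and Grm3 form group II, and Grm4, Grm7 and Grm8 belong to group III. Both of these groups couple to Gi and Go, lower cyclic AMP and mostly reduce transmitter release from the presynaptic terminal. In the hippocampus, mGluR5 sits beside the postsynaptic density of pyramidal cells and drives a form of long-term depression, whereas the presynaptic receptors act as brakes on glutamate and GABA release.

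Total counts per sample were 19092067 to 38663408, with TMM factors of 0.9578 to 1.062. Markers of dentate granule cells (142.8 to 358 summed CPM, counts scaled to the size of the library), CA1 pyramidal cells (216 to 385.8) and CA3 pyramidal cells (103.1 to 185) were present in every sample, as the tissue label states, and none of the markers in any of 14 lists was at 0 in any sample. Markers of neighboring tissue were also present. The summed level of 6 choroid plexus markers ran from 29.41 to 8007 CPM, that of 6 striatum markers from 35.1 to 270.5 CPM and that of 5 neocortex markers from 91.64 to 228 CPM. The highest striatum level was that of nPM female 1, and the next was 103 CPM in control male 4. The highest choroid plexus level and the lowest neocortex level were also those of nPM female 1. In such bulk samples, fewer cells of a type and less RNA per cell cannot be told apart.

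The 6 receptors differed widely in level. In RPKM, the CPM divided by the length of the exons in kilobases, Grm5 was highest at 54.25 ± 6.17 (SD, n = 20), followed by Grm3 at 29.6 ± 3.46, Grm7 at 15.4 ± 2.11, Grm2 at 4.83 ± 1.36, Grm8 at 2.04 ± 0.558 and Grm4 at 1.88 ± 0.596. Grm5 alone made up 50.2% of the summed RPKM of the 6 genes on average, with a range of 39.7% to 56.1% over samples. The ratio of each gene to the next in this order was above 1 in 20 of 20 samples for Grm5 over Grm3 (1.84-fold), Grm3 over Grm7 (1.92-fold), Grm7 over Grm2 (3.28-fold) and Grm2 over Grm8 (2.37-fold), each with a two-sided permutation p of 1e-05, the smallest that 100000 permutations can give. Grm8 and Grm4 did not differ beyond their spread, with Grm8 higher in 14 of 20 samples (1.10-fold, permutation p = 0.083). The order of the means depends on gene length in 1 place. In CPM, without a length correction, Grm7 (90.8 CPM) and Grm3 (90.1 CPM) were nearly level. The ratios between genes depend on length as well. Mean levels of Grm2 (23.64 CPM) and Grm8 (20.2 CPM) were closer than in RPKM, and Grm8 was above Grm2 in some samples. Grm8 was well above Grm4 (10.02 CPM), so these genes were close in RPKM only.

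**Figure D1:**
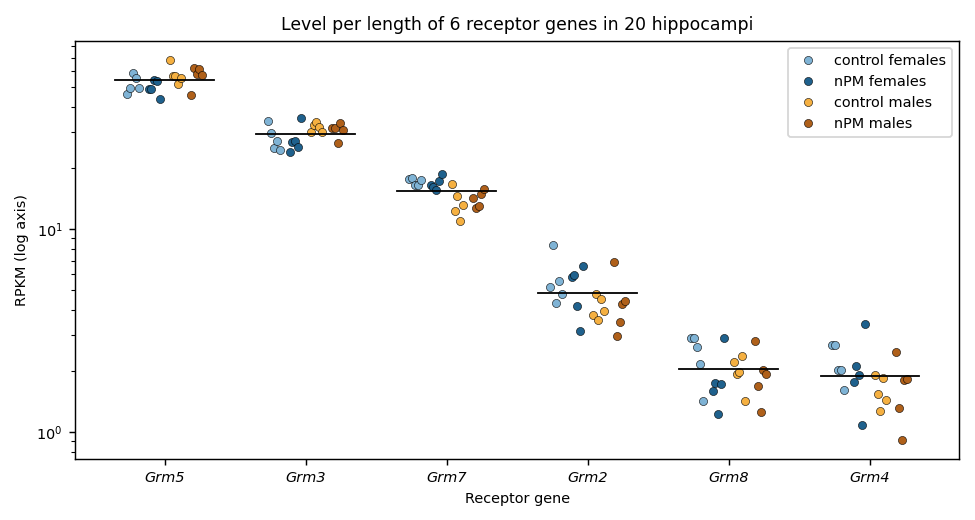
Level per length (RPKM, log axis) of the 6 receptor genes in each of 20 hippocampi, with 1 point per mouse colored by group and a line at the mean of all mice. Grm5 lies between 43.9 and 68.3 RPKM in every mouse, whereas Grm8 (1.23 to 2.93) and Grm4 (0.92 to 3.42) overlap.

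The plot of levels by mouse also shows that the scarce receptors varied more between mice. The SD of log2 expression within groups was 0.14 for Grm3, 0.15 for Grm7 and 0.17 for Grm5, but 0.36 for Grm2, 0.39 for Grm8 and 0.43 for Grm4. The lowest sample held 110 counts of Grm4, 294 of Grm2 and 314 of Grm8, against 1474 of Grm3, 1944 of Grm7 and 10449 of Grm5.

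All 6 genes were placed on mm10 by the deposited table. Grm5 spans chr7:87584168-88134907 on the plus strand, and Grm7, the longest at 921.6 kb, spans chr6:110645581-111567230 on the plus strand. On the minus strand lie Grm8 (chr6:27275119-28135178), Grm3 (chr5:9485541-9725170), Grm4 (chr17:27422387-27513341) and Grm2, the shortest at 12.99 kb (chr9:106643095-106656082). Whether counting used strand is not given in the sources used here, and reads from overlapping genes could be assigned to either gene. No annotated gene overlaps Grm4. Of the genes that overlap the others, the 6 within Grm5 reached at most 1153 counts in a sample against at least 10449 for Grm5, and those at Grm7, Grm3, Grm8 and Grm2 reached at most 101, 45, 12 and 5 counts.

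Promoter sequence from RefSeq (GRCm38.p6, 300 bases around the start of the gene) was matched for Grm2, Grm3, Grm7 and Grm8. Those of Grm3 and Grm8 are shown because these receptors varied together over mice, and that of Grm7 because it differed between the sexes in the other direction from Grm3, as described further on. Whether the promoters bear on either pattern was not tested. Capitals mark the GC box GGGCGG, the core site that Sp family factors recognize, searched on both strands.
Grm3: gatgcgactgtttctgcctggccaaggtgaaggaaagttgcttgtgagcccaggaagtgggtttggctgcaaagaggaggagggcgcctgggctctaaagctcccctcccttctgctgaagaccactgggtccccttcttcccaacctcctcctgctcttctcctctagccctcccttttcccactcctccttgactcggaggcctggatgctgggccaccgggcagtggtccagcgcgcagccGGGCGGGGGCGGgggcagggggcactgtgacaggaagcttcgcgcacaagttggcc
Grm8: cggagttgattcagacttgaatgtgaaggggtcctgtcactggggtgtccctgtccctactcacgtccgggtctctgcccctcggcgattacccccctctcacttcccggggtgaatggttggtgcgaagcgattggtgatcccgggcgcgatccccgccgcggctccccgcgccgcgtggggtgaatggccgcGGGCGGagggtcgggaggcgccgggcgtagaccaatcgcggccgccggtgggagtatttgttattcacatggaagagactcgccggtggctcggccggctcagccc
Grm7: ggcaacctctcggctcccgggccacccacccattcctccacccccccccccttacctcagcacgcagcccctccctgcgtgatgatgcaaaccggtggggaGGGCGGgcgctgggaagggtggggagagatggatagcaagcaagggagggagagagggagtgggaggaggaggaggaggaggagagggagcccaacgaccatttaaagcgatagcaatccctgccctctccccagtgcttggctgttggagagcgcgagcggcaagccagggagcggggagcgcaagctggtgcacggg
The Grm3 sequence is chr5:9725303-9725602 on the minus strand and begins upstream of a RefSeq start that lies 182 bases from the start in the deposited table. The Grm8 sequence is chr6:28135097-28135396 on the minus strand and the Grm7 sequence is chr6:110645348-110645647 on the plus strand. RefSeq holds 3 entries for Grm8 and 2 for Grm7, and the one nearest to the start in the deposited table is shown. GC content was 63.7%, 67.0% and 66.7% for Grm3, Grm8 and Grm7 and 72.0% for Grm2, against a median of 52.7% over 32851 promoters, and CpG pairs numbered 11, 33, 15 and 22 against a median of 7. GC boxes numbered 2 in Grm3 (side by side), 1 in Grm8, 1 in Grm7 and 4 in Grm2, and 35.7% of all promoters held at least 1. None of the 4 windows held the cyclic AMP response element TGACGTCA (1.79% of promoters), the TATA box TATAAA (13.6%) or the E-box CACGTG (7.15%), letters that do not overlap the GC box.

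The first comparison asked whether gestational nPM changed receptor expression in the adult hippocampus. No receptor gene passed p under 0.005, the threshold of the study's methods, with both sexes combined and sex as a covariate (limma-voom, two-sided), nor did any pass p under 0.05. The tests of edgeR and DESeq2 called none either. Over all genes tested, 0.141% passed the first threshold and 2.10% the second, so a set of 6 genes with no member called is near the background. The median change of the 6 was −0.05 on the log2 scale, against −0.0059 over all genes tested, and the median size of change was 0.048 for the 6 and 0.062 for all genes. Of the estimates, 5 were below 0 and 1 was above.

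Grm5 is the abundant postsynaptic receptor. In log2 expression (log2 CPM scaled by TMM) it was 8.82, 8.99, 9.21, 9.13 and 8.99 in control females and 8.92, 8.996, 9.12, 9.16 and 8.73 in nPM females. It was 9.52, 9.20, 9.25, 9.07 and 9.20 in control males and 8.86, 9.31, 9.25, 9.32 and 9.19 in nPM males. Within each sex the groups overlapped, the lowest female value being an nPM female (8.73) and the highest male value a control male (9.52). For nPM the log2 estimate came to −0.05 (SE 0.071, limma p = 0.472, with n = 20 samples in the fit), with a 95% interval from −12.9% to 6.83%.

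Grm3, a group II receptor found on neurons and astrocytes, was 6.62, 6.51, 6.22, 6.35 and 6.21 in control females and 6.15, 6.38, 6.36, 6.34 and 6.66 in nPM females. It was 6.58, 6.66, 6.74, 6.61 and 6.57 in control males and 6.58, 6.58, 6.37, 6.69 and 6.54 in nPM males. A single nPM female stood above all control females and the other 4 lay within or below their range. For nPM the interval ran from −11.3% to 6.17% (log2 fold change −0.04, SE 0.063, limma p = 0.493, n = 20).

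Grm7 is a presynaptic receptor of the active zone with low affinity for glutamate. Its log2 expression was 6.63, 6.71, 6.57, 6.58 and 6.67 in control females and 6.56, 6.59, 6.52, 6.73 and 6.69 in nPM females. In males it was 6.68, 6.19, 6.48, 6.03 and 6.32 in controls and 6.37, 6.23, 6.30, 6.48 and 6.52 after nPM. In females 2 nPM values lay within the range of the controls, 2 below it and 1 above, and in males all 5 lay within it. Grm7 had the narrowest bounds of the group III genes, from −8.09% to 10.8% (log2 fold change 0.013, SE 0.065, limma p = 0.843, n = 20).

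Grm8, a presynaptic group III receptor with high affinity for glutamate, had the largest estimate of the 6. Its log2 expression was 4.77, 4.85, 4.67, 4.40 and 3.81 in control females and 3.93, 4.12, 3.60, 4.16 and 4.77 in nPM females. In males it was 4.52, 4.27, 4.35, 4.57 and 3.86 in controls and 4.78, 4.06, 3.67, 4.34 and 4.25 after nPM. Of the nPM females, 4 lay below 4 of the control females, while the other nPM female (4.77) was among the highest and 1 control female (3.81) among the lowest. The log2 fold change was −0.38 in females (SE 0.22, limma p = 0.116, and exact permutation p = 0.198 for 5 against 5), −0.08 in males (SE 0.19, limma p = 0.687, exact permutation p = 0.675) and −0.23 with both sexes (SE 0.16, limma p = 0.160, adjusted p = 0.9998). None of these passed a threshold, and the interval with both sexes ran from −32.2% to 7.10%. With the neocortex marker level as a further covariate, chosen after the data were seen, the estimate with both sexes was −0.13 (limma p = 0.382, n = 20).

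Grm2 and Grm4, the remaining presynaptic receptors, had wide intervals as well. With both sexes the interval for Grm2, which restrains release at mossy fiber and perforant path terminals, ran from −20.9% to 19.4% (limma p = 0.778, n = 20). For Grm4 it ran from −25.4% to 21.0% (limma p = 0.665, n = 20). Mean log2 expression of Grm2 in females was 4.72 ± 0.38 (SD, n = 5) for controls and 4.59 ± 0.40 for nPM, and in males 4.36 ± 0.16 for controls and 4.38 ± 0.44 for nPM. For Grm4 the means of females were 3.50 ± 0.30 and 3.35 ± 0.54 and those of males 3.12 ± 0.24 and 3.08 ± 0.53, and exposed and control mice overlapped in each sex.

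**Figure D2:**
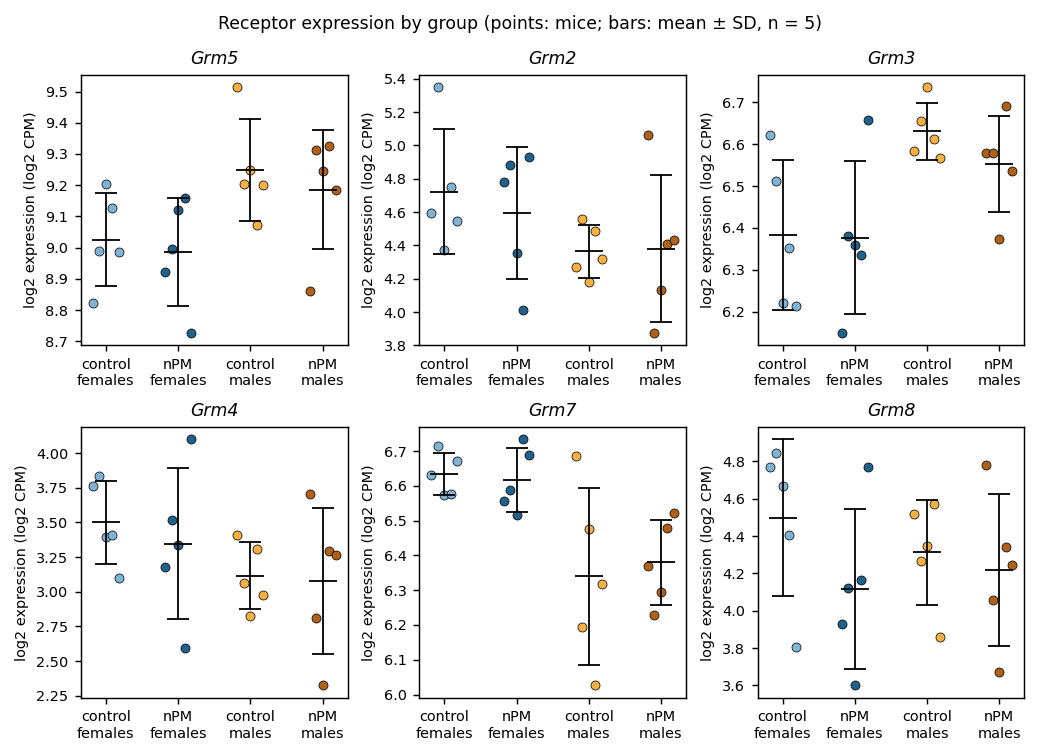
Log2 expression (log2 CPM) of each receptor gene in the 4 groups of 5 mice, with 1 point per mouse and bars for the mean ± SD. Exposed and control mice overlap in both sexes for all 6 genes, and most Grm7 values of males lie below those of females.

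Fitted in each sex alone, no receptor gene passed p under 0.005 in males, where 0.207% of all genes did, or in females, where 0.0909% did. At p under 0.05 the counts were also 0 of 6 in both sexes, against 4.28% of all genes for males and 1.99% for females. A sex difference in the response to nPM was fitted as an interaction, in which 0 of 6 passed p under 0.005 (0.217% of all genes) and 0 of 6 passed p under 0.05 (3.79%). With the oligodendrocyte marker level as a covariate, chosen after the data were seen, the interaction estimate of Grm7 was 0.21 (limma p = 0.0408, n = 20), past p under 0.05 but not 0.005, against 0.059 (limma p = 0.659) without it. This marker list was one that followed Grm7 in the same samples, as described further on. The share of all genes under 0.05 in the fit with that covariate was not computed. In the fit without the covariate the largest interaction estimate was that of Grm8, at 0.31 for males minus females (SE 0.32, limma p = 0.338, n = 20). Exact permutation tests of 5 against 5 within a sex, whose smallest possible p is 0.00794, gave p values between 0.198 and 0.952 for the 12 comparisons of nPM with control.

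**Figure D3:**
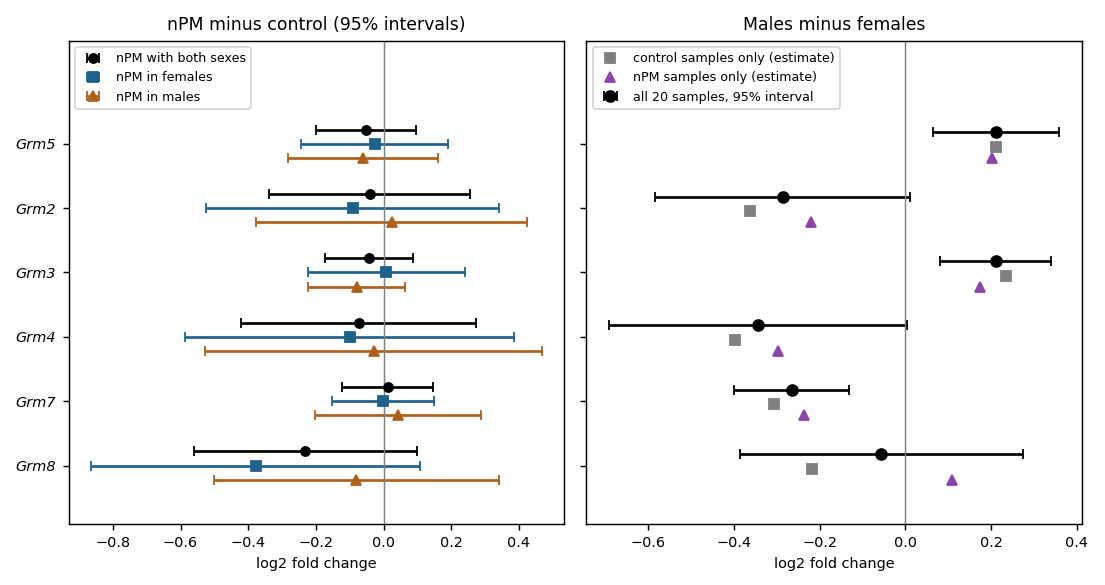
Estimated log2 fold changes of the 6 receptor genes, at left for nPM minus control with 95% intervals and at right for males minus females, where squares and triangles are estimates in control and nPM samples alone. All intervals at left include 0, whereas those of Grm5, Grm3 and Grm7 at right do not.

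The plot of estimates sets these changes beside the second comparison, which asked whether the receptors differed between males and females. Grm7 was lower in males, and Grm3 was higher, with exposure as a covariate in all 20 samples. Together 2 of 6 genes passed p under 0.005, as did 31.1% of all genes tested, so this share is near the background. At p under 0.05 the count was 3 of 6 against 48.4% of all genes, and at an adjusted p under 0.05 it was 3 of 6 against 40.4%. The 1 gene higher in males and the 1 gene lower in males stand beside 13.9% and 17.1% of all genes. The median size of the difference was 0.24 for the 6 receptors and 0.23 for all genes on the log2 scale.

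Grm7 had the smallest p of the 6. In the values given above, among controls 4 of 5 males were below all females, and the same held among nPM mice. The log2 difference of males minus females was −0.27 (SE 0.065, limma p = 5.03e-04, adjusted p = 0.00258, n = 20), or −16.8% with a 95% interval from −24.2% to −8.68%. Control males were more spread (SD 0.25) than control females (SD 0.061). With the oligodendrocyte marker level as a covariate, chosen after the data were seen, the difference was −0.19 (limma p = 0.00201, n = 20).

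Grm3 was 15.7% higher in males (log2 difference 0.21, SE 0.063, limma p = 0.00296, adjusted p = 0.0106, n = 20). From the values above, 2 control males were above all control females and 1 nPM male was above all nPM females, so the sexes overlapped. This call did not hold without control female 3 or 5, control male 2 or 3, nPM female 1 or 4, or nPM male 4, each left out in turn (limma p between 0.0055 and 0.0076, log2 difference 0.19 to 0.21). With the replicate number as a block the limma p was 0.00644. Grm5 was 15.8% higher in males (log2 difference 0.21, SE 0.071), which missed p under 0.005 (limma p = 0.00694, n = 20) but had an adjusted p of 0.0210, and 4 of 5 nPM males were above all nPM females. Grm5 did pass p under 0.005 without control female 3, control male 4 or nPM male 1, each left out in turn (limma p between 0.000879 and 0.00457).

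The other 3 receptors passed neither threshold in this fit. The log2 difference was −0.34 for Grm4 (SE 0.17, limma p = 0.0524, n = 20), −0.29 for Grm2 (SE 0.14, limma p = 0.0580) and −0.06 for Grm8 (SE 0.16, limma p = 0.725). Their 95% intervals reached from −38.1% to 0.268% for Grm4, from −33.3% to 0.735% for Grm2 and from −23.5% to 20.9% for Grm8.

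Within 1 exposure group, no receptor passed p under 0.005 for males against females, either among controls, where 18.6% of all genes did, or among nPM mice, where 11.0% did. For Grm7 the log2 difference was −0.31 among controls (limma p = 0.0167, n = 10) and −0.24 among nPM mice (limma p = 0.00847). For Grm3 it was 0.23 (limma p = 0.0181, n = 10) and 0.17 (limma p = 0.0884), and for Grm5 0.21 (limma p = 0.0465) and 0.20 (limma p = 0.0828). Grm8 alone had estimates of opposite sign, −0.22 among controls and 0.11 among nPM mice, and its interaction did not pass a threshold. In exact permutation tests the smallest p was 0.0159 for Grm7 among nPM mice, which became 0.254 after adjustment over 24 tests.

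Markers of cell types were compared between the sexes too. The summed endothelial markers were 137.2 to 189.8 CPM in females and 107.6 to 129.1 CPM in males, with no overlap, and 3 of the 5 genes passed p under 0.005. Of the other lists, 2 of 6 astrocyte and 2 of 5 microglia markers passed, and none of the 5 oligodendrocyte, 5 neocortex or 6 choroid plexus markers did, where 31.1% of all genes did. The part of endothelial, astrocyte and microglial RNA in the sex differences of Grm7, Grm3 and Grm5 was not tested.

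Genes that work with the receptors were followed through 6 lists of 65 genes, all of which were tested. None passed p under 0.005 in the comparison of nPM with both sexes, in either sex alone or in the interaction. With both sexes 1 of 65 passed p under 0.05, namely Rgs14, an RGS protein that speeds the shutdown of Gi signaling, with a log2 estimate of 0.29 (SE 0.13, limma p = 0.0410, n = 20, adjusted p = 0.9998), where 2.10% of all genes did. Of the genes with the smallest p in other lists, Naalad2, a peptidase that frees glutamate from N-acetylaspartylglutamate, led ligand supply and clearance (0.26, limma p = 0.119, n = 20). Gnai1, a Gi subunit, led the coupled G proteins (−0.12, limma p = 0.116, n = 20) and Adcy1, a calcium-stimulated adenylyl cyclase, the effectors (0.12, limma p = 0.285). Grip1, a PDZ protein of glutamate receptors, led the scaffolds and partners (−0.12, limma p = 0.127, n = 20).

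In single sexes few more passed p under 0.05, and these are named after their values were seen. In males they were Adcy5 (log2 fold change 0.19, limma p = 0.0165, n = 10), the mGluR5 adaptor Homer2 (0.25, limma p = 0.0279) and Elfn2, a postsynaptic partner of presynaptic receptors (0.23, limma p = 0.0268). In females they were Naalad2 (0.53, limma p = 0.0399, n = 10) and the phospholipase Plcb4 (−0.48, limma p = 0.0206), and Plcb4 was the 1 gene of the interaction (0.71, limma p = 0.0485, n = 20). These counts of 3, 2 and 1 of 65 stand beside 4.28%, 1.99% and 3.79% of all genes.

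Between the sexes 12 of the 65 genes passed p under 0.005 (18.5%, with 31.1% over all genes), 4 higher and 8 lower in males, and those named here were chosen after their values were seen. The postsynaptic scaffolds Shank1 (log2 difference −1.52), Shank2 (−0.62) and Shank3 (−0.83), which link mGluR5 through Homer to the postsynaptic density, were all lower in males. No other gene of their list of 13 passed, including Homer1 (0.012), Homer2 (−0.083) and Homer3 (−0.083). Of the G proteins, Gnai1 (0.42) and Gnai3 (0.34) were higher and Gnao1 (−0.26) was lower. Among the effectors, the channel subunit Kcnj6 (−0.52), the cyclase Adcy9 (−0.36) and the endocannabinoid synthase Dagla (−0.69) were lower, and the cannabinoid receptor Cnr1 (0.42) was higher, as was Rgs2 (0.42), a regulator of Gq signaling. None of the 12 genes of ligand supply and clearance and none of the 5 genes of mGluR-dependent depression passed.

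The receptors were next compared over mice, as deviations of log2 expression from the mean of each group, so that differences between groups took no part. Of 15 pairs, 5 had an adjusted p under 0.05 by both Pearson's r and Spearman's rho, from 100000 permutations within groups. Grm4 and Grm8 rose and fell together (r = 0.739, permutation p = 0.00146, adjusted p = 0.0171, and rho = 0.771, permutation p = 5.70e-04, adjusted p = 0.00855, over 20 mice), and so did Grm2 and Grm4 (r = 0.736, permutation p = 0.00228, adjusted p = 0.0171, and rho = 0.692, permutation p = 0.00335, adjusted p = 0.0251). Grm3 went with Grm8 (r = 0.644, permutation p = 0.00967, adjusted p = 0.0363, and rho = 0.627, permutation p = 0.00994, adjusted p = 0.0298) and with Grm4 (r = 0.616, permutation p = 0.0122, adjusted p = 0.0366, and rho = 0.63, permutation p = 0.00808, adjusted p = 0.0298). Grm2 and Grm5 moved in opposite directions (r = −0.646, permutation p = 0.0069, adjusted p = 0.0345, and rho = −0.636, permutation p = 0.00769, adjusted p = 0.0298). Without the 2 mice farthest from the median of the receptor with the lower number, the 5 values of r were 0.609, 0.677, 0.518, 0.475 and −0.579. In females and in males alone, the pairs had r of 0.636 and 0.877, 0.73 and 0.744, 0.708 and 0.542, 0.745 and 0.42, and −0.562 and −0.745. Grm7 reached this in no pair, with r between −0.00023 and 0.291. The part of cell and tissue make-up in the correlations between receptors was not tested.

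**Figure D4:**
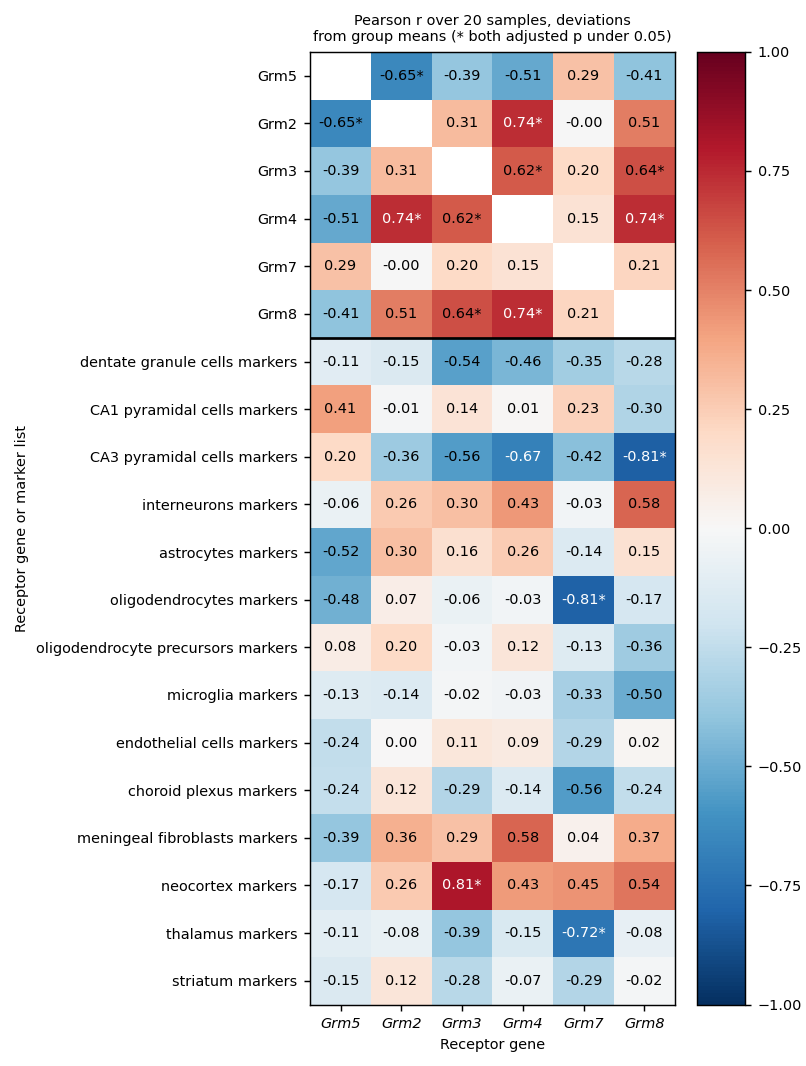
Pearson's r over 20 mice between each receptor gene and the other receptors (upper rows) and 14 marker lists (lower rows), on deviations from group means, with a star where both adjusted p values are under 0.05. Stars mark 5 receptor pairs and 4 of 84 pairings with marker lists.

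The chart of correlations also sets each receptor beside the summed level of 14 marker lists, written to cover the cells and neighboring tissue a hippocampal sample could hold. Of 84 relations, 4 had an adjusted p under 0.05 by both measures. Grm8 was high where CA3 pyramidal markers were low (r = −0.815, permutation p = 9.00e-05, adjusted p = 0.00756, and rho = −0.872, permutation p = 6.00e-05, adjusted p = 0.00504), with r = −0.908 in females, −0.693 in males and −0.811 without the 2 mice farthest from the median. Grm3 was high where neocortex markers were high (r = 0.805, permutation p = 4.20e-04, adjusted p = 0.0176, and rho = 0.776, permutation p = 6.60e-04, adjusted p = 0.0265), with r = 0.86 in females, 0.678 in males and 0.753 without the 2 farthest mice. Grm7 was low where oligodendrocyte markers were high (r = −0.809, permutation p = 6.70e-04, adjusted p = 0.0188, and rho = −0.702, permutation p = 0.00308, adjusted p = 0.0431), with r = −0.616 in females, −0.843 in males and −0.674 without the 2 farthest mice.

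Grm7 was also low where thalamus markers were high (r = −0.722, permutation p = 9.60e-04, adjusted p = 0.0202, and rho = −0.717, permutation p = 0.0012, adjusted p = 0.0265), with r = −0.71 without the 2 farthest mice, −0.553 in females and −0.868 in males. Without removal of the group means this last r was −0.261. Grm4 and the CA3 markers had r = −0.672 (permutation p = 0.0035, adjusted p = 0.0588) and rho = −0.729 (permutation p = 0.00153, adjusted p = 0.0265), past the threshold by rho alone, as were Grm7 and the neocortex markers (r = 0.45, permutation p = 0.012, adjusted p = 0.144, and rho = 0.644, permutation p = 0.00158, adjusted p = 0.0265). All these levels are shares of the same libraries.

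**Figure D5:**
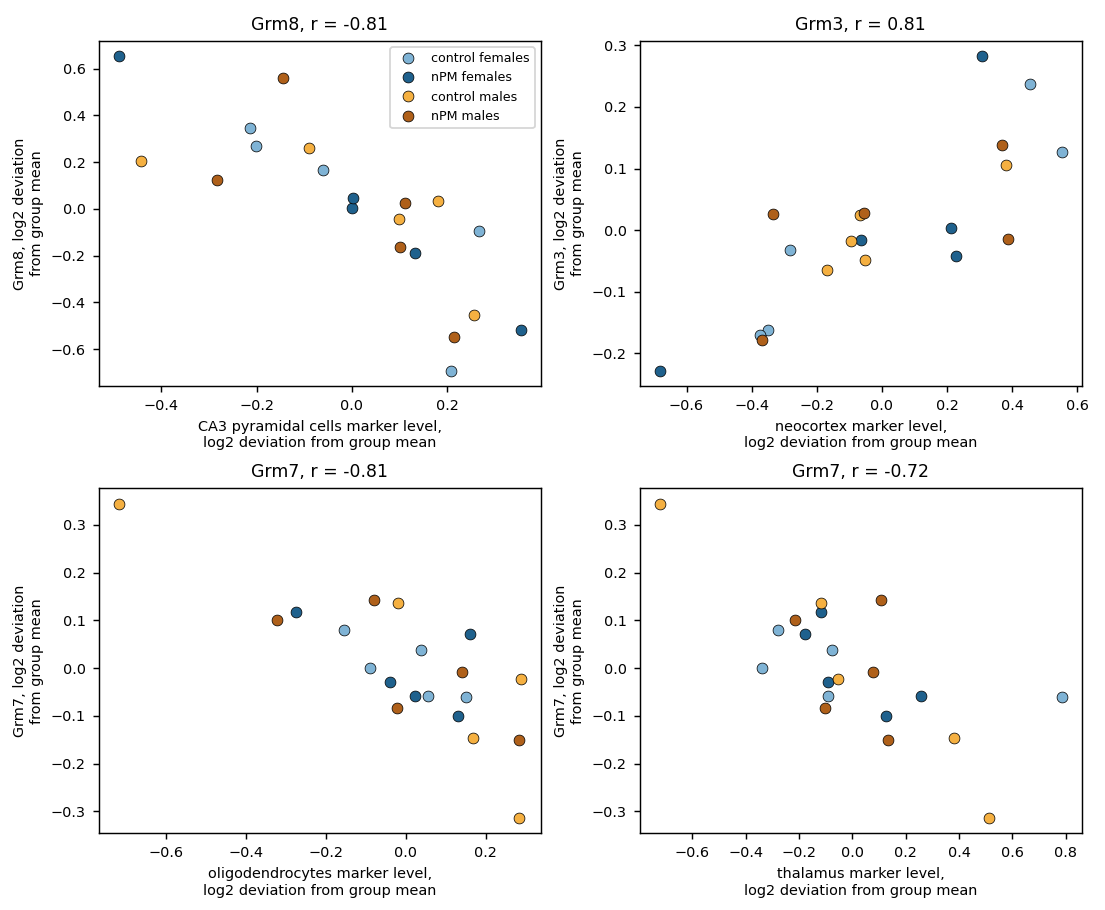
The 4 relations between a receptor and a marker list that had both adjusted p values under 0.05, as log2 deviations from group means on both axes, with 1 point per mouse colored by group. Over the mice of all 4 groups together, Grm8 falls with the CA3 marker level and Grm3 rises with the neocortex marker level. Grm7 falls with the oligodendrocyte and thalamus marker levels. Correlations within single groups were not computed.

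The scatter plots show the mice behind these 4 relations, and the lists were then taken apart gene by gene, a step chosen after the data were seen. For Grm8, Cpne4 had r = −0.876, while the other CA3 markers Iyd (−0.512) and Bok (−0.515) were less closely related. For Grm3, the neocortex markers Cux2 (0.724), Tbr1 (0.659) and Rorb (0.659) had adjusted p values under 0.05, and Fezf2 (0.517) had not. For Grm7, all 5 oligodendrocyte genes were related, from −0.695 for Mobp to −0.824 for the myelin gene Mog, although Mobp had r = −0.478 without the 2 farthest mice and −0.0561 in females. Of the thalamus genes, Prkcd (−0.74) and Synpo2 (−0.424) passed and Tcf7l2, Lef1 and Plekhg1 did not, with r between −0.415 and −0.113. In total 14 of these 18 relations had an adjusted permutation p under 0.05 by both measures. These genes make up the lists already picked for their relation to the same receptor in the same mice. Their p values therefore describe which genes carry a relation and add no separate evidence for it. No receptor was related to the total count or to the share of mitochondrial ribosomal RNA at an adjusted p under 0.05 (0 of 12, r between −0.437 and 0.357). These are deviations from group means, so they cannot show whether depth enters the sex differences. Total counts were 19092067 to 29252770 in nPM females and 31189000 to 37378472 in nPM males, while the sexes overlapped among controls. With group means kept, r with the log2 total count was −0.613 for Grm7 and between −0.0111 and 0.35 for the other receptors. The part of depth in the sex differences was not tested.

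Among all genes tested, those whose deviations were most like each receptor over 20 mice are given as a description, with no test, since they are the highest of 19797. For Grm5 they were Gabra2 (r = 0.918), which encodes a GABA-A receptor subunit, Ccdc148 (0.908) and the AMPA receptor subunit Gria2 (0.895). For Grm3 they were Dpy19l1 (0.905), the transcription factor Tshz2 (0.886) and Gm28928 (0.885). For Grm4 they were the acid-sensing channel Asic1 (0.906), Ccdc184 (0.905) and Rtl5 (0.873), and for Grm8 Ptchd1 (0.896) and the BMP-binding protein Bmper (0.876). For Grm7 they were Afdn (0.889), which encodes the junction protein afadin, Gm22205 (0.855) and Glrx2 (0.842). For Grm2 they were Stk40 (0.871), Pmepa1 (0.864) and Slc25a25 (0.825). Without the 2 mice farthest from the median, r for these genes was between 0.652 and 0.878.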

How the data were processed

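The 6 genes, the lists of pathway and marker genes and the tests were chosen with earlier results of these data known. Total RNA of 20 hippocampi was depleted of ribosomal RNA and sequenced. The authors checked reads with FastQC, trimmed adapters with Trimmomatic, aligned to mm10 with HISAT2 and counted genes with featureCounts 1.5.0-p3 on a Gencode annotation. Strand and multi-mapping settings are not given in the sources used here. They deposited whole-number counts per gene, not normalized, with each gene's length and a mean RPKM over all samples. The deposited mean RPKM was recomputed from counts and lengths, with a largest difference of 4.91e-11, and RPKM per sample was computed from the deposited counts and lengths.

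Genes were kept by filterByExpr (minimum count 10, minimum total 15) over the 4 groups, scaled by TMM (edgeR 4.0.16) and fitted by limma-voom (limma 3.58.1, R 4.3.3, offset 0.5 counts), with Benjamini-Hochberg adjustment over 19797 genes. nPM was fitted with sex as a covariate, in each sex, and as an interaction with sex, and sex with exposure as a covariate. The 5 fits were tested on simulated data. Two-sided exact permutation tests over 252 groupings compared single receptors. Every receptor was named in each comparison, with the pathway gene of the smallest p per list in both sexes and any pathway gene under 0.005 in a fit of nPM, and the 3 genes most like each receptor. A few genes that this rule names, or that belong to the lists, are not reported here by name. Replicates of a group differed by more than counting noise in all 40 pairs (chi-square per degree of freedom 18.08 to 101.1). Nothing in the labels ties samples to separate litters. Alternatives were edgeR's quasi-likelihood test, DESeq2 1.42.0, RLE scaling, no filter, quality weights, a replicate block, age, and each sample left out. The 3 marker covariates and the correlations with depth and single markers were chosen after seeing the data.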

Additional observations from a re-analysis of the deposited data

How the results depend on the processing

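The counts of receptor genes called for nPM at p under 0.005 were 0 of 6 in all 4 comparisons under every alternative. In the main fits of nPM 0.0909% to 0.217% of all genes passed. For sex the count was 2 (Grm7 and Grm3) in the main fit, where 31.1% of all genes passed. It was 1 with the replicate block (Grm7) and 1 to 3 with each sample left out, and Grm7 was called each time. Other alternatives that changed a call are named below. The shares of all genes under the alternatives are not given here. Without control male 4 or nPM male 1 Grm5 was added, and without control female 3 it took the place of Grm3. Of 10 same-numbered pairs of a control and an nPM sample of 1 sex, 3 had r over 0.1 (−0.364 to 0.157). Pairs with different numbers, or across the sexes, were not compared, so these values cannot settle whether the numbers pair the samples. The block changed no other call. Quality weights also lost Grm3 for sex (limma p = 0.00624, n = 20) and added Grm5 (p = 0.00100) and Grm4 (p = 0.00336). Grm5 passed for sex without a filter and with oligodendrocyte or choroid plexus markers as a covariate as well. Age as a covariate was not fitted for sex, since the ages of the sexes do not overlap.

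The estimates that changed sign were all uncalled. With neocortex markers as a covariate they were, for nPM with both sexes, Grm2 0.0031, Grm3 0.016 and Grm4 0.024, in males Grm4 0.13 and Grm8 0.049, and in females Grm7 0.0066. Grm4 in males was 0.020 with edgeR, 0.017 with DESeq2, 0.011 with the replicate block and 0.018 with oligodendrocyte markers, which also gave Grm5 0.012 in males, Grm3 −0.012 and Grm4 0.012 in females and an interaction of 0.08 for Grm5. Grm7 in females was 0.00013 with edgeR. Quality weights gave Grm2 −0.054 in males, Grm4 0.0050 in females and interactions of −0.034 for Grm2, −0.018 for Grm4 and 0.049 for Grm5. Age gave Grm3 −0.0068 and Grm5 0.0042 in females, no filter gave an interaction of 0.0025 for Grm5, and choroid plexus markers gave Grm8 0.0098 for sex. The cause was not tested.

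With each sample left out in turn, the log2 estimates that changed sign ranged as follows. They were, for nPM with both sexes −0.13 to 0.033 for Grm2, −0.17 to 0.026 for Grm4 and −0.027 to 0.051 for Grm7. They were, for nPM in males −0.16 to 0.14 for Grm2, −0.21 to 0.15 for Grm4, −0.11 to 0.0099 for Grm5, −0.043 to 0.13 for Grm7 and −0.24 to 0.048 for Grm8. They were, for nPM in females −0.19 to 0.059 for Grm2, −0.061 to 0.069 for Grm3, −0.30 to 0.050 for Grm4, −0.076 to 0.041 for Grm5 and −0.029 to 0.022 for Grm7. They were, for the interaction −0.059 to 0.25 for Grm2, −0.094 to 0.28 for Grm4, −0.10 to 0.047 for Grm5 and −0.031 to 0.14 for Grm7. They were, for sex −0.13 to 0.014 for Grm8. Grm8, the largest estimate for nPM in females, ran from −0.56 to −0.24 (limma p 0.0189 to 0.304). The spread between samples limits Grm2, Grm4 and Grm8 most.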
